A study of Mus musculus with 6 samples.

Results

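Fc receptors bind the constant part of antibodies and connect antibody-coated material to phagocytes. This account covers 7 mouse genes of this group among the 17441 genes listed in the expression tables. The activating IgG receptors are *Fcgr1*, *Fcgr3* and *Fcgr4*, and *Fcgr2b* is the inhibitory one. *Fcer1g* encodes the signalling chain that the activating receptors share, *Fcgrt* the neonatal receptor, and *Fcrls* a receptor-like protein. The genes were taken by symbol. *Fcrls* was added because of its high values in the *Card9* KO MI-labelled libraries, so its values are given as a description and without a test. The other 6 are counted below as the Fc receptor genes. All 7 passed the filter on low values, which kept 13120 genes that reached 1 FPKM (fragment density, relative to gene length and library size) in 2 or more libraries.

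RNA came from the part of the heart below the ligature, taken at day 3 from male mice of 12 weeks. WT sham mice had the operation without a ligature, WT MI mice had the left anterior descending coronary artery tied, and mice labelled *Card9* KO MI, whose labels give a knockout of the adapter gene *Card9*, had the artery tied as well. By the methods all strains were on a C57BL/6 background, and controls were littermates or C57BL/6 mice. Each group had 2 libraries. Knockout hearts without infarction were not analysed here, so the effects of genotype and ligation cannot be told apart in any comparison of the *Card9* KO MI-labelled libraries with WT sham.

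FcγRI (*Fcgr1*), FcγRIII (*Fcgr3*) and FcγRIV (*Fcgr4*) carry no complete signalling motif of their own in mice. They pair with the FcR γ-chain, whose immunoreceptor tyrosine-based activation motif (ITAM) is phosphorylated by Src family kinases and then recruits the kinase Syk. FcγRIIb (*Fcgr2b*) carries an inhibitory motif (ITIM) in its own tail and recruits the phosphatase SHIP1. The neonatal receptor, which pairs with β2-microglobulin, protects IgG and albumin from breakdown inside cells such as endothelium and macrophages. CARD9 itself acts below Syk in myeloid cells, and *Fcrls* is widely used as a marker of microglia in the brain.

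At the depth estimated from the steps between low values, the libraries held 3015000 to 4300000 fragments. Within each group the pair of libraries had a Pearson's r of 0.980 to 0.982 over genes, which are not independent replicates. Nothing in the labels says whether libraries of a group came from separate mice, so p-values measure the spread between these libraries. *Card9* had FPKM values of 0.99 and 1.03 for WT sham, 3.39 and 5.08 for WT MI, and 9.85 and 6.94 for the *Card9* KO MI-labelled libraries. Its log2 fold change between those libraries and WT MI was 0.85 (0.23 standard error, adjusted p = 0.11 from the limma test described below), which was not called. In direction *Card9* therefore went against the label, and each direction between those libraries and WT MI below rests on the label alone. FPKM covers whole genes, and whether the knockout leaves *Card9* transcript was not tested. Cardiomyocyte markers, 7 genes, summed to an FPKM of 42607 to 44404 for WT sham, 27254 to 27891 for WT MI and 22538 to 26201 for the *Card9* KO MI-labelled libraries.

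Infarction was accompanied by higher RNA of the 3 activating receptors, of the inhibitory receptor and of the shared signalling chain. In the limma test on log2(FPKM + 1), with Benjamini-Hochberg adjustment over all tested genes and a call at an adjusted p below 0.05, 5 of the 6 Fc receptor genes were called higher in WT MI relative to WT sham. Over all tested genes, 27.7% were called higher and 9.39% lower in this comparison. The median log2 fold change was 2.44 over the 6 genes and 0.19 over all genes. The latter depended on scaling, at 0.06 without the 100 most abundant genes, 0.00 after upper-quartile scaling and −0.07 after quantile normalization. The split of calls moved with it, from 3637 higher and 1232 lower to 2603 and 2159 after upper-quartile scaling and to 2287 and 2414 after quantile normalization. The 5 calls held under each scaling. Changes on this log scale understate those of low genes. In such tissue RNA, more cells that carry a receptor and more RNA of it per cell cannot be told apart.

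*Fcgr1*, the high-affinity receptor for IgG, had FPKM values of 1.22 and 1.02 for WT sham and 13.3 and 18.9 for WT MI. The sham values correspond to about 10 and 7.96 fragments, so they rest on few reads. Its log2 fold change came to 2.99 (0.18 standard error, adjusted p = 4.3e-05 from limma). *Fcgr4*, a receptor of intermediate affinity found on monocytes, macrophages and neutrophils, was also low in WT sham, at 2.30 and 1.60, and stood at 17.4 and 17.5 for WT MI. This was a log2 fold change of 2.66 (0.15 standard error, adjusted p = 3.4e-05 from limma), again from few sham fragments, about 9.16 and 6.06.

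*Fcgr3*, the low-affinity activating receptor of most myeloid cells and NK cells, had FPKM values of 16.4 and 9.79 for WT sham and 62.3 and 63.6 for WT MI. Its log2 fold change came to 2.22 (0.21 standard error, adjusted p = 2.5e-04 from limma). *Fcgr2b*, the inhibitory receptor, had FPKM values of 9.80 and 8.27 for WT sham and 40.3 and 42.3 for WT MI. The log2 fold change stood at 2.08 (0.12 standard error, adjusted p = 3.2e-05 from limma). For all 4 IgG receptors both WT MI libraries lay above both WT sham libraries, and the gap between the groups was wider than the gap within either. The share of all tested genes without overlap in this comparison was not computed, so the lack of overlap is not read as particular to these receptors. The 27.7% that limma called higher is a different measure.

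*Fcer1g*, the γ-chain, had FPKM values of 25.5 and 21.03 for WT sham and 164 and 209 for WT MI. Its log2 fold change of 2.95 (0.16 standard error, adjusted p = 3.3e-05 from limma) was close to that of *Fcgr1*. *Fcgrt* was the most abundant of the 7 genes in WT sham, at 37.4 and 31.8, and stood at 41.8 and 43.6 for WT MI. The libraries did not overlap, but the difference was small and missed the threshold (0.30 on the log2 scale, standard error 0.11, 95% interval 0.05 to 0.56, adjusted p = 0.066 from limma). Over the alternatives its adjusted p ran from 0.043 to 0.55, and it was called without WT sham replicate 1.

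**Figure D1:**
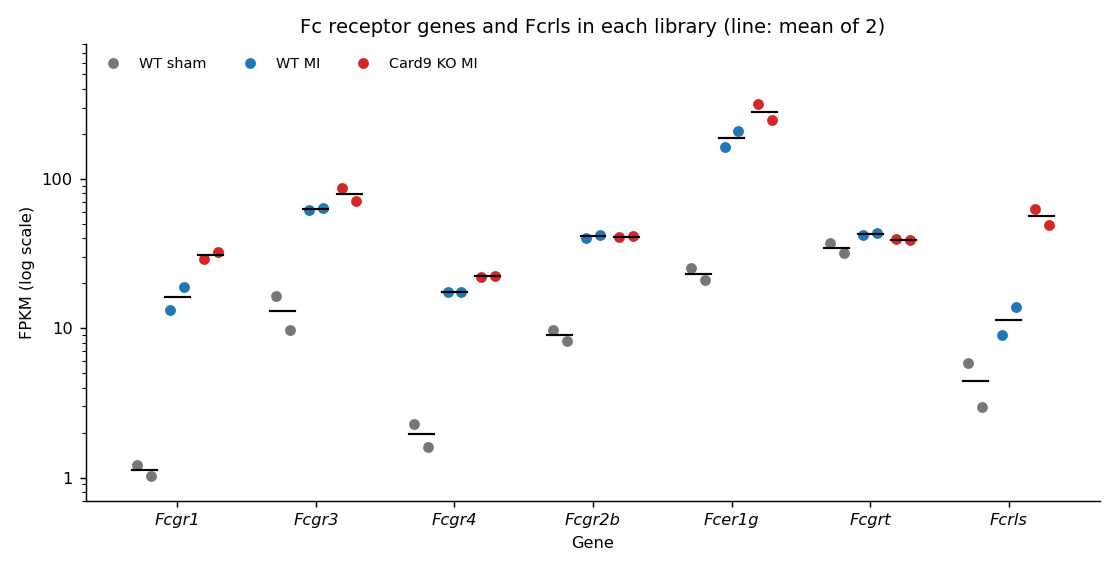
FPKM of the 7 genes in each of the 6 libraries on a log axis, with points coloured by group (WT sham grey, WT MI blue, *Card9* KO MI-labelled libraries red) and a line at the mean of the 2 libraries. The infarct groups lie close together for *Fcgr2b* and *Fcgrt*, while *Fcrls* stands at 62.8 and 49.5 for the *Card9* KO MI-labelled libraries and at 8.95 and 13.8 for WT MI.

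*Fcrls* encodes a protein with Fc receptor-like and scavenger receptor domains. Its values were 5.88 and 2.98 for WT sham, about 42.4 and 20.4 fragments, and 8.95 and 13.8 for WT MI. The log2 fold change came to 1.21 (0.29 standard error from limma) and is given without a test. These WT MI libraries were also used when the gene was chosen, and the fit takes its spread from all 3 groups. The log2 fold change was 0.93 without WT MI replicate 2 and 0.82 without WT sham replicate 2.

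The order of the levels changed between the groups, on FPKM, which is relative to transcript length. In WT sham the order was *Fcgrt*, *Fcer1g*, *Fcgr3*, *Fcgr2b*, *Fcrls*, *Fcgr4* and *Fcgr1*, and only *Fcgr3* and *Fcgr2b* overlapped. In WT MI *Fcer1g* came first, followed by *Fcgr3*, *Fcgrt*, *Fcgr2b*, *Fcgr4*, *Fcgr1* and *Fcrls*. There *Fcgrt* and *Fcgr2b* overlapped, as did *Fcgr4* and *Fcgr1*, and *Fcgr1* and *Fcrls*. In the *Card9* KO MI-labelled libraries *Fcer1g* and *Fcgr3* still led, *Fcrls* came next, and *Fcgr2b*, *Fcgrt*, *Fcgr1* and *Fcgr4* followed, with no overlap between any neighbours.

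Between the *Card9* KO MI-labelled libraries and WT MI, the activating receptors and their chain had higher values while the inhibitory receptor did not, but none of these differences passed the test. In limma 0 of the 6 Fc receptor genes were called, against 0.816% of all tested genes called higher and 0.587% called lower. At an unadjusted p below 0.05 there were 2 genes, *Fcgr1* and *Fcer1g*. With 2 libraries against 2, the smallest p that an exact two-sided permutation test can give for 1 gene is 0.333. In the study's screen as recomputed on group means (at least 2-fold and a probability of at least 0.8), 0 of the 6 genes passed. *Fcgr1* reached the probability (0.801) but not the fold (1.91). Of 17164 genes with a value above 0 in these groups, more than the 13120 of the limma test, 0.728% were called higher. In WT MI against WT sham 5 of 6 passed the same screen, against 6.06% of 16896 genes.

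*Fcgr1* had the largest difference of the 6. Its values were 13.3 and 18.9 for WT MI and 29.1 and 32.4 for the *Card9* KO MI-labelled libraries, about 139 and 192 fragments against 323 and 346. The groups did not overlap. The log2 fold change came to 0.91 (0.18 standard error, 95% interval 0.49 to 1.33, adjusted p = 0.059 from limma). The adjusted p ran from 0.041 to 0.30 over the alternatives. It was 0.041 when 5 was added to each FPKM, where the log2 fold change was 0.77, and 0.042 when only genes with a mean FPKM of at least 5 were tested.

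*Fcer1g* had FPKM values of 164 and 209 for WT MI and 316 and 248 for the *Card9* KO MI-labelled libraries (0.59 on the log2 scale, standard error 0.16, 95% interval 0.21 to 0.97, adjusted p = 0.12 from limma). *Fcgr4* stood at 17.4 and 17.5 against 22.0 and 22.5, with a log2 fold change of 0.33 and a 95% interval of −0.02 to 0.68 (adjusted p = 0.27 from limma). For *Fcgr3* the values were 62.3 and 63.6 against 87.2 and 71.3, with a log2 fold change of 0.32 and a 95% interval of −0.17 to 0.81 (adjusted p = 0.45 from limma). These 3 genes and *Fcgr1* were higher in both *Card9* KO MI-labelled libraries than in both WT MI libraries. The same holds for 30.8% of all tested genes.

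*Fcgr2b* was nearly level. Its values were 40.3 and 42.3 for WT MI and 40.8 and 41.4 for the *Card9* KO MI-labelled libraries, and the groups overlapped. The log2 fold change was −0.01 with a 95% interval of −0.27 to 0.26 (adjusted p = 0.99 from limma), which leaves room for a difference of that size in either direction. *Fcgrt*, at 41.8 and 43.6 against 39.4 and 39.1, was lower in both *Card9* KO MI-labelled libraries, as were 21.9% of all tested genes. Its log2 fold change was −0.12 with a 95% interval of −0.37 to 0.14 (adjusted p = 0.60 from limma).

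**Figure D2:**
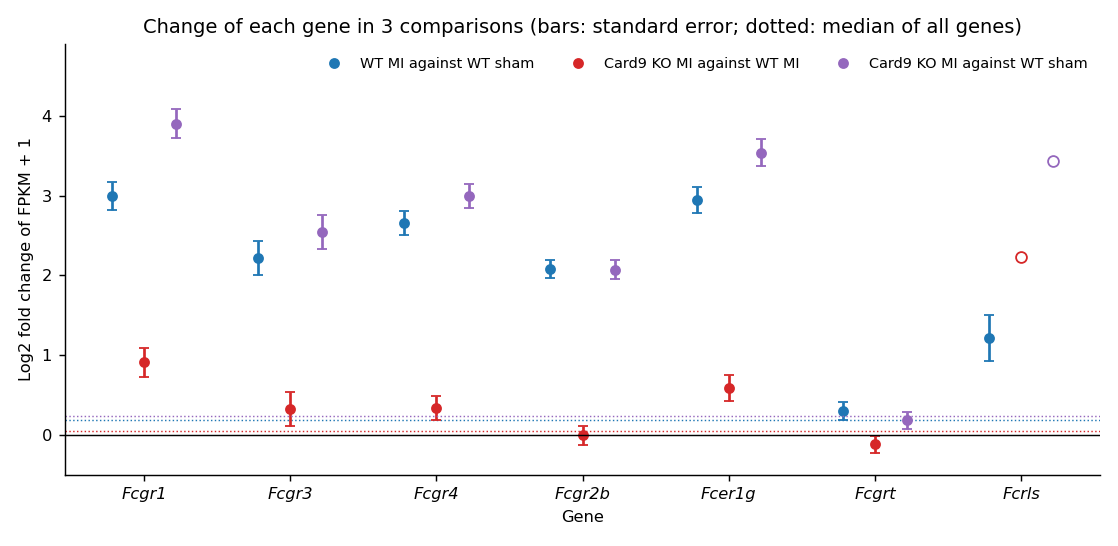
Log2 fold change of FPKM + 1 for each gene in the 3 comparisons, with standard errors from limma as bars and the median of all tested genes as dotted lines. Open circles mark *Fcrls* in the comparisons with the *Card9* KO MI-labelled libraries, which have no test or standard error because the gene was chosen on them. Its change between WT MI and WT sham is also given without a test. *Fcgr2b* lies at 2.08 and 2.07 in the comparisons with WT sham and at −0.01 between the infarct groups.

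Against WT sham, 5 of the 6 Fc receptor genes were called higher in the *Card9* KO MI-labelled libraries, where 34.8% of all tested genes were called higher and 14.3% lower. The split of all calls depended on scaling here too, with 4569 higher and 1875 lower as deposited, 3230 and 2884 after upper-quartile scaling, and 2843 and 3409 after quantile normalization. Log2 fold changes were 3.903 for *Fcgr1*, 3.54 for *Fcer1g*, 2.99 for *Fcgr4*, 2.54 for *Fcgr3* and 2.07 for *Fcgr2b*, with a median of all tested genes of 0.24. The largest adjusted p among them was 8.0e-05, for *Fcgr3*. *Fcgrt* was not called (0.18, adjusted p = 0.21), and with upper-quartile scaling its direction turned to −0.07. Both comparisons use the same WT sham libraries, so their values are not independent of each other.

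The balance of activating to inhibitory receptor RNA stood apart in the 3 groups. The FPKM of *Fcgr1*, *Fcgr3* and *Fcgr4* summed to 19.9 and 12.4 for WT sham, 93.0 and 99.96 for WT MI, and 138 and 126 for the *Card9* KO MI-labelled libraries. Divided by *Fcgr2b*, this gave a ratio of 2.03 and 1.501 for WT sham, 2.31 and 2.37 for WT MI, and 3.39 and 3.05 for the *Card9* KO MI-labelled libraries. The 3 groups did not overlap in this ratio, and the means were 1.77 ± 0.376, 2.34 ± 0.0410 and 3.22 ± 0.238 (SD, n = 2). *Fcgr3*, the largest part of the sum, shares a stretch of identical coding sequence with *Fcgr2b*. How such shared reads were assigned is not given, so the ratio is less certain than the counts alone would make it. An exact two-sided permutation test of the ratio cannot give a p under 0.333 at this group size, and no other test of it was run.

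The 3 activating receptors held unequal parts of that sum. *Fcgr3* held 82.3% and 78.9% of it in WT sham, 67.0% and 63.6% for WT MI, and 63.1% and 56.5% for the *Card9* KO MI-labelled libraries. *Fcgr1* held 6.12% and 8.22%, then 14.3% and 18.9%, then 21.02% and 25.7%. The share of *Fcgr4* was 11.5% and 12.9% for WT sham and 15.9% to 18.7% in the 4 infarct libraries, where the infarct groups overlapped. *Fcer1g* per unit of activating receptor was 1.28 and 1.69, 1.77 and 2.09, and 2.28 and 1.96, so the infarct groups overlapped in this ratio too.

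Macrophage markers were higher after infarction too. The 13 markers (among them *C1qa*, *Csf1r* and *Cd68*) summed to an FPKM of 274 to 323 for WT sham, 1211 to 1467 for WT MI and 1914 to 2628 for the *Card9* KO MI-labelled libraries. In WT MI against WT sham 13 of 13 were called higher (median log2 change 1.74), where 27.7% of all tested genes were. Also called higher there were 7 of 7 tested neutrophil markers (median 3.15), 7 of 7 monocyte markers (3.20) and 4 of 6 fibroblast markers (2.05). Of 7 cardiomyocyte markers 5 were called lower, and of 7 endothelial markers 1 was called higher and 1 lower. The neutrophil markers summed to 5.40 to 7.87 for WT sham. In the *Card9* KO MI-labelled libraries against WT MI, 12 of 13 macrophage markers had positive values and 0 were called. Their median log2 change was 0.73 against 0.05 for all genes. Neutrophil markers went the other way between the infarct groups, with a sum of 98.3 to 228 for WT MI and 48.5 to 61.7 for the *Card9* KO MI-labelled libraries, and 0 of 7 tested markers called. Fibroblast markers, 6 genes, summed to 1235 to 1655 for WT MI and 2488 to 2594 for the *Card9* KO MI-labelled libraries, with 2 called higher, *Col1a1* and *Postn*, and 0 to 1 with a library left out. Of the 6, 4 had positive and 2 negative values, the latter *Pdgfra* (−0.52, adjusted p = 0.094) and *Dcn* (−0.16). Endothelial markers summed to 337 to 340 against 382 to 385, with 0 of 7 called. Dendritic cell markers summed to 6.65 to 8.74 for WT sham, 10.1 to 13.1 for WT MI and 17.8 to 19.2 for the *Card9* KO MI-labelled libraries. Between the infarct groups 4 of the 4 tested had positive values and 0 were called. Markers of mast cells, B cells, T cells and NK cells summed to at most 6.25 in any library. The part of any of these cells in the receptor values was not tested.

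Set against the macrophage marker sum, *Fcgr2b*, *Fcgr3*, *Fcgr4*, *Fcer1g* and *Fcgrt* had lower values for the *Card9* KO MI-labelled libraries than for WT MI. The groups did not overlap for these genes, and *Fcgr1* overlapped. The sum itself was higher in the *Card9* KO MI-labelled libraries, at 1914 to 2628 against 1211 to 1467. A gene level in FPKM, such as *Fcgr2b*, therefore falls by division. Log2 changes of the markers between these groups ran from −0.10 (*Itgam*) to 0.91 (*Ctss*). Abundant markers weigh most in the sum, such as *C1qb*, at 218 and 261 for WT MI and 491 and 364 for the *Card9* KO MI-labelled libraries. *Itgam* had 33.6 and 30.6 against 37.7 and 23.5, and division by single markers was not tried. The share of all genes lower on this scale was not computed. *Fcgr2b* per 100 FPKM of macrophage markers was 3.04 and 3.02 for WT sham, 3.33 and 2.88 for WT MI, and 1.55 and 2.16 for the *Card9* KO MI-labelled libraries. *Fcgr3* was at 5.08 and 3.57, 5.14 and 4.33, and 3.32 and 3.72, and *Fcgr4* at 0.713 and 0.583, 1.44 and 1.19, and 0.837 and 1.18. The highest *Fcgr4* value of the *Card9* KO MI-labelled libraries was close to the lowest of WT MI. *Fcgrt* went from 11.6 in both sham libraries to 3.45 and 2.97 for WT MI and to 1.5 and 2.04. *Fcgr1* stood at 0.378 and 0.372 for WT sham, 1.10 and 1.29 for WT MI, and 1.11 and 1.69 for the *Card9* KO MI-labelled libraries, where it overlapped with WT MI. *Fcer1g* was at 7.89 and 7.67, 13.6 and 14.2, and 12.0 and 12.9, so relative to this sum it was lower in the *Card9* KO MI-labelled libraries than in WT MI.

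**Figure D3:**
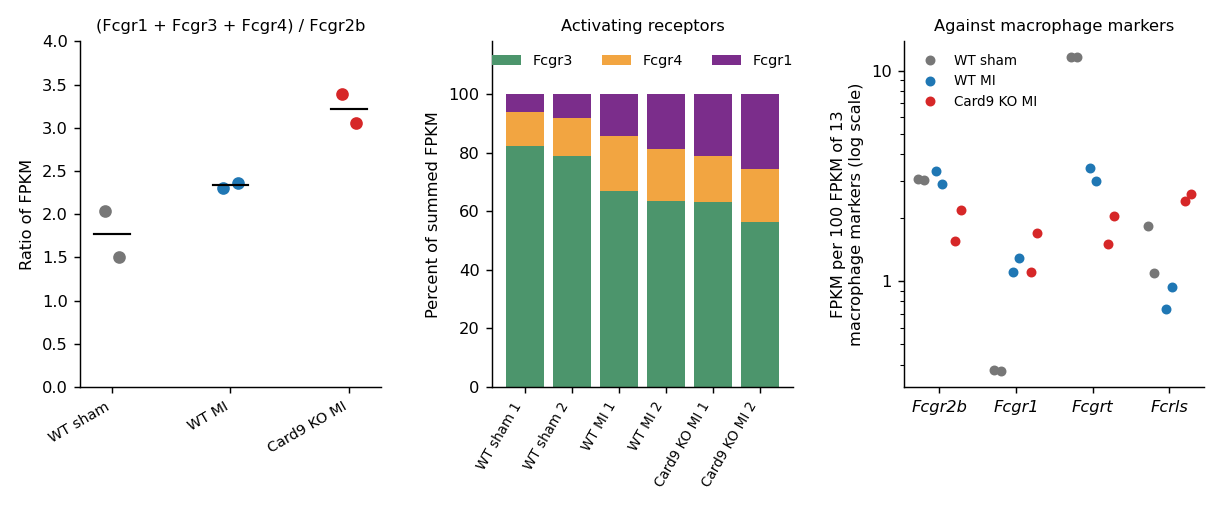
Left, ratio of the summed FPKM of *Fcgr1*, *Fcgr3* and *Fcgr4* to that of *Fcgr2b*, one point per library and a line at the group mean. Centre, the percent of that activating sum held by each receptor in each library. Right, FPKM of 4 genes per 100 FPKM of macrophage markers on a log axis. The ratio is 1.501 and 2.03 for WT sham and 3.05 and 3.39 for the *Card9* KO MI-labelled libraries. *Fcrls*, chosen for its high values in the latter, is highest there relative to the macrophage marker sum.

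*Fcrls*, chosen for this difference, had FPKM values of 8.95 and 13.8 for WT MI and 62.8 and 49.5 for the *Card9* KO MI-labelled libraries, or about 82.1 and 123 fragments against 614 and 464. The lower of the latter was above the higher of the former. The log2 fold change was 2.23, which ranked 11 of the 13120 tested genes, and it was 1.94 to 2.51 with each library left out in turn. This rank and range come from the values used to choose the gene, so they are no support for the difference. Per 100 FPKM of macrophage markers *Fcrls* was 1.82 and 1.09 for WT sham, 0.739 and 0.941 for WT MI, and 2.39 and 2.59 for the *Card9* KO MI-labelled libraries. It was therefore lower per macrophage marker in WT MI relative to WT sham and highest in the *Card9* KO MI-labelled libraries.

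Other genes known from microglia were described beside it. *Cx3cr1*, the fractalkine receptor, stood at 6.08 and 8.18 for WT MI and 16.3 and 16.0 for the *Card9* KO MI-labelled libraries, with no overlap (a log2 change of 1.09, adjusted p = 0.034 from limma). It lost its call when any 1 of the 6 libraries was left out. *Tmem119*, another marker used for microglia, had 7.76 and 10.3 against 17.9 and 15.7 (a log2 change of 0.84, adjusted p = 0.20 from limma). *P2ry12*, a purinergic receptor of microglia, was low, at 1.58 and 2.93 against 3.37 and 2.79, and the groups overlapped.

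Resident cardiac macrophage markers had values in both directions. Of 13 tested, 5 had positive and 8 negative values in the *Card9* KO MI-labelled libraries against WT MI, and their median log2 change was −0.17. The 1 called gene was *Lyve1*, a hyaluronan receptor, which was lower (12.6 and 14.4 against 4.70 and 6.84, a log2 change of −1.11, adjusted p = 0.037 from limma) and lost its call when any 1 of the 6 libraries was left out. Of 7 monocyte markers 4 had positive and 3 negative values, with a median of 0.14, among them *Ly6c2* at 0.89 (adjusted p = 0.084). The 1 called gene was *Chil3*, a chitinase-like protein, at 86.5 and 57.2 for WT MI and 13.7 and 12.1 for the *Card9* KO MI-labelled libraries (a log2 change of −2.36, adjusted p = 0.0073 from limma). It lost its call without WT MI replicate 1 and without either *Card9* KO MI-labelled library.

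On mm9 *Fcrls* lies on chromosome 3, 87054680 to 87067660, minus strand. In the order of protein-coding genes on GRCm38.p6 its neighbour on one side is *Cd5l*, which encodes a protein secreted by macrophages. *Cd5l* is not listed in either WT sham library and had FPKM values of 1.21 and 1.62 for WT MI and 11.5 and 4.28 for the *Card9* KO MI-labelled libraries. *Kirrel*, the neighbour on the other side, had 2.66 and 2.59, 6.60 and 6.38, and 9.79 and 8.95. *Fcrl1*, further along, stayed at or below 1.52 in every library, and *Fcrl5* at or below 0.27. These neighbours were looked up after their values were seen.

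*Fcgr1* is on the same chromosome, 96086832 to 96098179, minus strand. Chromosome 1 holds 4 of the genes, in the order *Fcgr2b* (172890689 to 172906678, minus strand), *Fcgr4* (172949051 to 172959892, plus strand), *Fcgr3* (172981300 to 172995066, minus strand) and *Fcer1g* (173159703 to 173164496, minus strand). The gaps between them are 42.4, 21.4 and 164.6 kb. *Fcgrt* is on chromosome 7, 52348363 to 52359192, minus strand. Their FPKM values cover whole genes, and no exon of the 7 overlaps an exon of another gene in the GENCODE vM1 annotation.

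*Fcgr3* and *Fcgr2b* encode nearly the same outer domains, and reads from the identical part cannot be assigned by sequence. Of all 50-base windows, 12.8% of those in the *Fcgr3* transcript and 10.7% of those in the *Fcgr2b* transcript occur in the other gene, and none of those in the other 5 genes occur elsewhere among the annotated coding transcripts. The longest identical stretch, 129 bases in the coding sequence of both, is printed here because it marks where their FPKM values could mix. It spans bases 313 to 441 of the *Fcgr3* transcript and 402 to 530 of the *Fcgr2b* transcript in GENCODE vM1 (mm9).
Fcgr3 and Fcgr2b: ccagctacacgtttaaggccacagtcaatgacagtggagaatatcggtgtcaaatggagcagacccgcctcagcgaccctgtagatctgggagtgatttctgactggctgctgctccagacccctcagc

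How shared reads were assigned is not given in the sources used here, so the levels of these 2 genes are less certain than those of the others.

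Promoters from RefSeq on GRCm38.p6 were found for all 7 genes. In the 250 bases before the start, GAGGAA, the purine-rich core of many sites of the myeloid factor PU.1, was searched on both strands, where the reverse strand reads TTCCTC. It occurs in 4 of the 7, *Fcgr1*, *Fcgr3*, *Fcgr4* and *Fcrls*, and not in *Fcgr2b*, *Fcer1g* or *Fcgrt*. The same letters occur in 23.3% of 32851 promoters and in 26.4% of 10336 tested genes. The motif was chosen after sequences and values were seen, and a match is a description, not a site. The windows are shown on each gene's own strand, with the motif in capitals, because they set the 3 activating receptors beside *Fcrls*.
Fcgr1: atggcaacttccTTCCTCttttctaatctt
Fcgr3: gagtccatttccTTCCTCtttttgtag
Fcgr4: aaggctatttacTTCCTCtcttctagtcaa
Fcrls: caagtctgtaaaGAGGAAggacgtttgctt

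They lie at chr3:96294007-96294036 for *Fcgr1* (minus strand, motif 55 bases before the start), chr1:171059395-171059421 for *Fcgr3* (minus strand, 15 bases before the second of its listed starts), chr1:171018892-171018921 for *Fcgr4* (plus strand, 22 bases before) and chr3:87263651-87263680 for *Fcrls* (minus strand, 144 bases before). In the 3 activating receptors the motif reads TTCCTC and lies near the start, and in *Fcrls* it reads GAGGAA and lies further off. The windows of *Fcgr1* and *Fcgr3* share a run of 14 bases, TTCCTTCCTCTTTT.

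The pathway below the receptors was followed with lists. Of 28 tested genes of ITAM signalling, 23 were called higher and 0 lower in WT MI relative to WT sham. The shares over all tested genes were 27.7% and 9.39%. The list's median log2 change was 1.35, against 0.19 for all genes. With each library left out in turn 18 to 22 were called higher. The smallest p-values belonged to *Tyrobp*, the DAP12 adapter (18.1 and 14.1 for WT sham, 117 and 109 for WT MI, log2 fold change 2.75, adjusted p = 4.8e-05 from limma), *Rac2*, a GTPase of blood cells (2.35, adjusted p = 1.1e-04), *Prkcd*, a protein kinase C (1.43, adjusted p = 1.3e-04), *Pik3r5*, a regulatory subunit of PI3-kinase (2.12, adjusted p = 1.4e-04), and *Lyn*, a Src family kinase (1.40, adjusted p = 1.9e-04). The most abundant gene was *Rac1*, a GTPase of most cells, at 102 and 98.2 against 154 and 149 (0.59, adjusted p = 0.0022).

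Between the *Card9* KO MI-labelled libraries and WT MI, limma called 0 of the 28. Of these, 26 had positive values, and the median was 0.30 against 0.05 for all genes. *Tyrobp* stood at 117 and 109 against 197 and 142 (a log2 change of 0.56, adjusted p = 0.14 from limma) and *Rac1* at 154 and 149 against 175 and 158 (0.14, adjusted p = 0.46). Against WT sham, 25 of 28 were called higher, where 34.8% of all tested genes were. The list holds *Card9* itself, and *Lat* was below the filter.

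Of 8 genes of ITIM signalling and other brakes, 6 were called higher and 1 lower in WT MI relative to WT sham. Over all tested genes these shares were 27.7% and 9.39%. *Inpp5d*, which encodes SHIP1, had FPKM values of 3.61 and 2.88 for WT sham and 12.7 and 12.5 for WT MI (a log2 change of 1.69, adjusted p = 1.5e-04 from limma). *Ptpn6*, the phosphatase SHP-1, rose by 1.78 on the log2 scale (adjusted p = 1.4e-04), *Dok1* and *Dok2*, docking proteins, by 2.07 and 1.75 (adjusted p = 1.7e-04 and 3.3e-04), and *Csk*, a kinase that restrains Src kinases, by 1.28 (adjusted p = 0.0024). *Ptpn11*, the phosphatase SHP-2, was the gene called lower (50.8 and 51.7 against 38.4 and 39.2, −0.39, adjusted p = 0.013), and it lost its call without either WT MI library or WT sham replicate 2. *Inppl1*, which encodes SHIP2, was not called (−0.05, adjusted p = 0.72). In the *Card9* KO MI-labelled libraries against WT MI 0 of the 8 were called, and the median was 0.32. *Inppl1* stood at −0.05 (adjusted p = 0.81) and *Ptpn11* at −0.20 (adjusted p = 0.27).

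**Figure D4:**
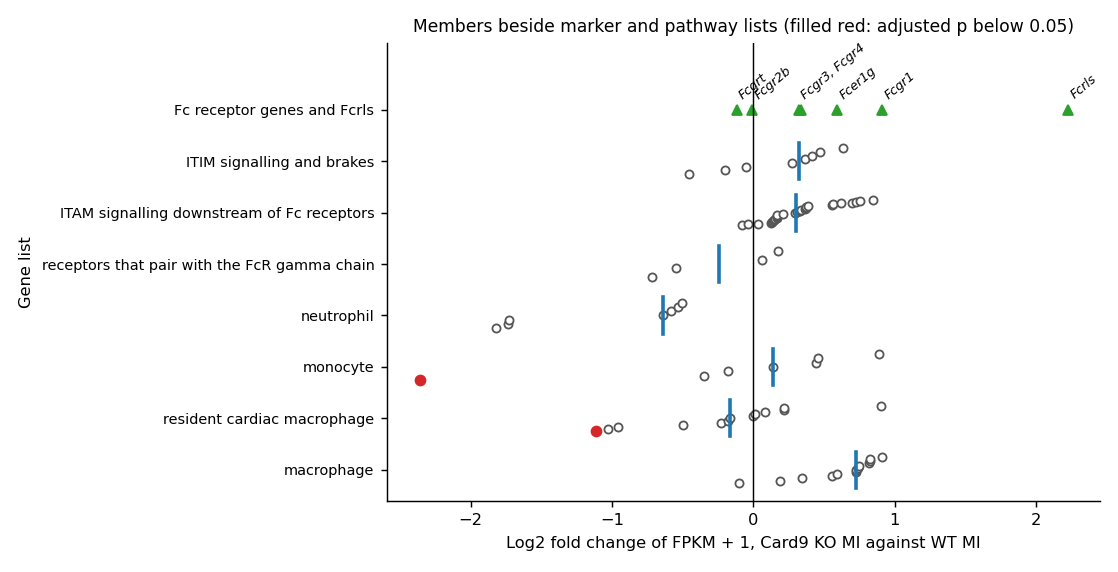
Log2 fold change of FPKM + 1 for the *Card9* KO MI-labelled libraries against WT MI for marker and pathway lists, one circle per tested gene, filled red where the adjusted p was below 0.05, with a blue bar at each list's median. The 7 genes are the triangles in the top row. *Fcrls*, which was chosen for this difference, lies at 2.23, and the others lie between −0.12 and 0.91.

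Genes listed as other receptors of the FcR γ-chain were higher after infarction. Of 7 listed for this, 4 were tested, and 4 were called higher in WT MI relative to WT sham. The share over all tested genes was 27.7%. These counts and the median below include *Pirb*, which does not itself use the chain. *Pirb*, a paired immunoglobulin-like receptor that signals through ITIMs although its activating partner uses the chain, had 3.01 and 2.54 for WT sham and 28.3 and 23.7 for WT MI (a log2 change of 2.84, adjusted p = 4.7e-05 from limma). *Clec4d*, *Clec4n* and *Clec4e* encode C-type lectins for microbial sugars and lipids, and their log2 fold changes were 4.07, 2.98 and 2.48 (adjusted p = 6.4e-05, 1.2e-04 and 6.0e-04). Between the *Card9* KO MI-labelled libraries and WT MI 0 of 4 were called, with a median of −0.24. *Pirb* had 34.2 and 25.2 (0.17, adjusted p = 0.63) and *Clec4n* 21.3 and 15.9 against 16.9 and 18.4 (0.06, adjusted p = 0.92). *Clec4e* was at 3.77 and 1.72 against 5.48 and 4.43 (−0.72, adjusted p = 0.22), and *Clec4d* at 17.03 and 9.88 against 20.7 and 18.3 (−0.55, adjusted p = 0.32).

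Receptors for other antibody classes had low values. Of 12 other Fc receptors and Fc receptor-like genes 2 were tested, and 0 were called in either WT MI against WT sham or the *Card9* KO MI-labelled libraries against WT MI. *Fcer1a*, the IgE-binding chain of mast cells, was at or below 0.25 in every library, and *Ms4a2*, its partner, is not listed. *Trim21*, a cytosolic antibody receptor, had 2.21 and 3.16 for WT sham, 3.19 and 3.27 for WT MI, and 6.24 and 5.73 for the *Card9* KO MI-labelled libraries. Its log2 fold change was 0.21 for WT MI against WT sham (adjusted p = 0.41, and −0.13 with quantile normalization), 0.72 between the infarct groups (adjusted p = 0.10), and 0.93 against WT sham (adjusted p = 0.0046). *Fcrl1* had 0.26, 0.73 and 0.99 (adjusted p = 0.49, 0.19 and 0.018). Their calls against WT sham were lost with quantile normalization, and that of *Fcrl1* also without *Card9* KO MI replicate 1 and without WT sham replicate 2.

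Of 12 ligands and light chains 1 was tested, *B2m*, which encodes β2-microglobulin, the partner of the neonatal receptor. Its values were 788 and 605 for WT sham, 818 and 966 for WT MI, and 1082 and 1028 for the *Card9* KO MI-labelled libraries. The log2 fold change was 0.36 for WT MI against WT sham (adjusted p = 0.08), 0.25 between the infarct groups (adjusted p = 0.38) and 0.61 for the *Card9* KO MI-labelled libraries against WT sham (adjusted p = 0.0091), the last lost with upper-quartile scaling and without WT sham replicate 2. The ratio of *B2m* to *Fcgrt* was 21.1 and 19.0, 19.6 and 22.2, and 27.4 and 26.3, so WT sham and WT MI overlapped while the *Card9* KO MI-labelled libraries lay above both. The immunoglobulin genes of this list are not listed in any library, so no level of antibody RNA is given.

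Genes whose pattern over the 6 libraries was most like that of each member are given as a description, by Pearson's r of log2(FPKM + 1) among 8785 genes with a mean FPKM of at least 5. The libraries form 3 groups, which sets much of such an r. For *Fcrls* these were *Pcf11* (0.997), *Tgfb3* (0.995), *Ubqln2*, *Itga6* and *Psmd10* (0.993 each). *Tgfb3*, a TGF-β ligand, had 8.12 and 6.64 for WT sham, 12.3 and 13.6 for WT MI, and 34.5 and 31.6 for the *Card9* KO MI-labelled libraries. *Itga6*, an integrin subunit, had a narrower range, from 17.0 to 30.1.

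For *Fcgr1* the most alike were *Filip1l*, *Ube2w* and *Col1a1*, a fibrillar collagen chain with 45.4 and 41.1 for WT sham, 359 and 516 for WT MI, and 932 and 870 for the *Card9* KO MI-labelled libraries. For *Fcer1g* they were *Lgals3*, a galectin of macrophages (3.24 and 2.17, 91.6 and 130, 226 and 166), *Pdia3* and *Rab4b*. For *Fcgr3* they were *Aprt*, *Tagln2* and *Selplg*, for *Fcgr4* *Arfip1*, *Kdelr3* and *Snx1*, and for *Fcgr2b* *Atf6b*, *Rp2* and *Efemp2*. *Fcgrt* was closest to *Ankrd1*, a stress-responsive cardiomyocyte gene (1188 and 507 for WT sham, 2411 and 2490 for WT MI, 1628 and 1422 for the *Card9* KO MI-labelled libraries), then *Dda1* and *Irf2bpl*.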

How the data were processed

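RNA-seq of mouse heart gave 6 libraries in 3 groups, assigned from the labels. The authors enriched mRNA, mapped filtered reads to mm9 and deposited, for each library, FPKM values by NCBI gene number. The submitters' processing notes name BWA and Bowtie2. The gene annotation, the strand setting and the handling of shared reads are not given in the sources used here. Genes missing from a library were set to 0. Of 17441 gene numbers, 17390 matched a symbol in a table of GRCm38.p6, used for names, promoters and the order of the *Fcrls* neighbours.

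limma 3.58.1 (R 4.3.3; lmFit, eBayes with trend) was fitted on log2(FPKM + 1) of 13120 genes (those reaching 1 FPKM in 2 or more libraries), all 3 groups in one fit without covariates, with Benjamini-Hochberg adjustment. Other values came from Python 3.11.15, numpy 2.4.6 and pandas 2.3.3. Scripts were tested on simulated data. FPKM steps gave relative depth, but 72.5% to 77.4% of low values lay within 0.2 of whole fragments, so counts were not rebuilt. Estimated fragments cover counting error only, with 3 fragments on 2 kb worth an FPKM of 0.349 to 0.498.

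Members and lists were chosen with earlier results of these data known. Named are all members, *Card9*, each pathway list's called genes (the 5 with the smallest p where more were called) and its 2 most abundant genes, and the genes most like a member (5 for *Fcrls*, 3 for the others). Marker genes, *Clec4d* and *Clec4e* between the infarct groups, the *Fcrls* neighbours and the promoter motif were named after their values were seen. Alternatives were other added values, filters, scalings, fits and calls, the replicate block, and each library left out. The microglia marker list is given by single genes only, and 1 result on it is not reported here.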

Additional observations from a re-analysis of the deposited data

How the results depend on the processing

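The 5 calls among the 6 Fc receptor genes against WT sham were made under every alternative run, both for WT MI and for the *Card9* KO MI-labelled libraries, with 5 to 6 called in the former and 5 in the latter when each library was left out in turn. The sixth was *Fcgrt*, without WT sham replicate 1. Between the infarct groups 0 were called, 0 with each library left out, and 1 (*Fcgr1*) with 5 added to FPKM or with a mean FPKM of at least 5. Directions turned for *Trim21* in WT MI against WT sham with quantile normalization (−0.13), for *Fcgrt* in *Card9* KO MI against WT sham with upper-quartile scaling (−0.065), and between the infarct groups for *Fcgr2b* without WT MI replicate 2 or *Card9* KO MI replicate 1 (−0.039 to 0.027 over the libraries left out), and for *Pirb* (−0.04 to 0.387) and *Clec4n* (−0.137 to 0.262) without *Card9* KO MI replicate 1. The cause was not tested. *Fcrls* against WT sham was 2.71 with 5 added to FPKM. With a mean FPKM of at least 5, *Card9*, *Clec4e*, *Fcrl1*, *Trim21* and *Ptpn22* could not be fitted. Of 1126 single-gene values, 1101 kept direction and call. Many could not change direction, because the other filters, the other fits, the replicate block and leaving out a library of the group not compared return the same log2 fold change. The count is therefore no measure of robustness. Same-numbered libraries did not deviate together (r of deviations −0.0083 to 0.0204), so the numbers do not pair them. With the replicate block, 5, 0 and 5 members were called, while all-gene calls between the infarct groups went from 107 higher and 77 lower to 45 and 26. They were 7 and 5 with no filter and 3 to 63 higher and 5 to 33 lower with a library left out.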
